A study of Vitis vinifera with 2 samples.

Results

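The predicted microRNA (miRNA) novel_mir_238 of grapevine (*Vitis vinifera* L. cv. Muscat Hamburg) is 1 of 299 predicted miRNAs in a deposited table of read counts. It was selected on those counts: no reads were listed for it in the library from plantlets without cold treatment (NCT), and among the entries listed in the cold-treated (CT) library only it had the most reads. The article on these libraries calls the same sequence novel_mir_39, a name that in the deposited table belongs to another entry, with 25 reads in NCT and 0 in CT. The table name is used throughout.

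Small RNAs were sequenced to ask which miRNAs differ after a short cold exposure. The NCT library came from plantlets micropropagated in vitro and harvested at 26 °C and 0 h, and the CT library from plantlets of the same cultivar and age, 6 weeks, kept at 4 °C for 4 h. Each library was a pool of 3 plantlets, and there was 1 library per condition, so no value has a replicate check. The pool and the treatment cannot be told apart. The sample labels give leaf as the tissue and the methods give the shoot apex with a developed leaf. The table holds predicted miRNAs alone, so the tissue could not be checked against marker genes.

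Plant miRNAs are cut by a Dicer-like enzyme from the stem of a hairpin transcript, the precursor. The cut leaves a duplex of the 5p arm, from the 5′ side of the stem, and the 3p arm, from the 3′ side. An arm loaded into an Argonaute protein pairs with messenger RNAs, which are then cleaved or translated less, and in plants the pairing usually extends over most of the miRNA. In the miR482 family, mature miRNAs from the 3p arm are known to pair with mRNAs of disease resistance genes of the NBS-LRR class.

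The precursor of novel_mir_238 lay on chromosome 14 of the 12X PN40024 assembly, on the antisense strand from 19755471 to 19755581, in a region annotated as intergenic. Its sequence is shown because the fold, the relatives and the predicted targets are all read from it. It is 111 nt long, and the capitals mark the 5p arm and then the 3p arm.
novel_mir_238 precursor: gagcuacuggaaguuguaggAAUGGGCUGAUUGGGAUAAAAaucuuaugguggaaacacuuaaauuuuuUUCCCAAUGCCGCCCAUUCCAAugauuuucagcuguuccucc

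The 5p arm is the sequence counted in the table and the 3p arm is the one the study paired with it. In both, capitals mark the seed, bases 2 to 8 from the 5′ end.
novel_mir_238 5p arm: aAUGGGCUgauugggauaaaa
novel_mir_238 3p arm: uUCCCAAUgccgcccauuccaa
The 5p arm took positions 21 to 41 of the precursor (chromosome 14, 19755541 to 19755561) and had a GC content of 38.1%. The 3p arm, of 22 nt, took positions 70 to 91 (19755491 to 19755512) and had a GC content of 54.5%, against 41.4% for the whole precursor. Between the arms lay 28 nt. Reads of the 3p arm were not analysed here, as the deposited table counts the 5p arm only.

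In the CT library novel_mir_238 had 3916 reads, and in the NCT library it was listed with 0. Scaled to the clean reads of the library, 25915815 in CT and 21355400 in NCT, the CT level was 151 TPM (transcripts per 1000000 clean reads), with a 95% Wilson interval of 146 to 156. The interval covers at most counting error. It treats reads as independent, which PCR copies are not, so it can be too narrow even for that. It was the sixth entry by reads among 192 listed in CT (rank 6), and it held 4.01% of the 97572 reads that the table gives this library (Wilson interval 3.89 to 4.14%). In the plot of reads by rank, novel_mir_238 is the first entry listed in CT only, after 5 entries listed in both libraries.

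The neighbours in that order were present in both libraries. Just above it, novel_mir_178 had 9743 reads in NCT and 8339 in CT. Just below, novel_mir_182 had 2611 and 3074 reads. The entry after that, novel_mir_261 at rank 8, was again listed in CT only.

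**Figure D1:**
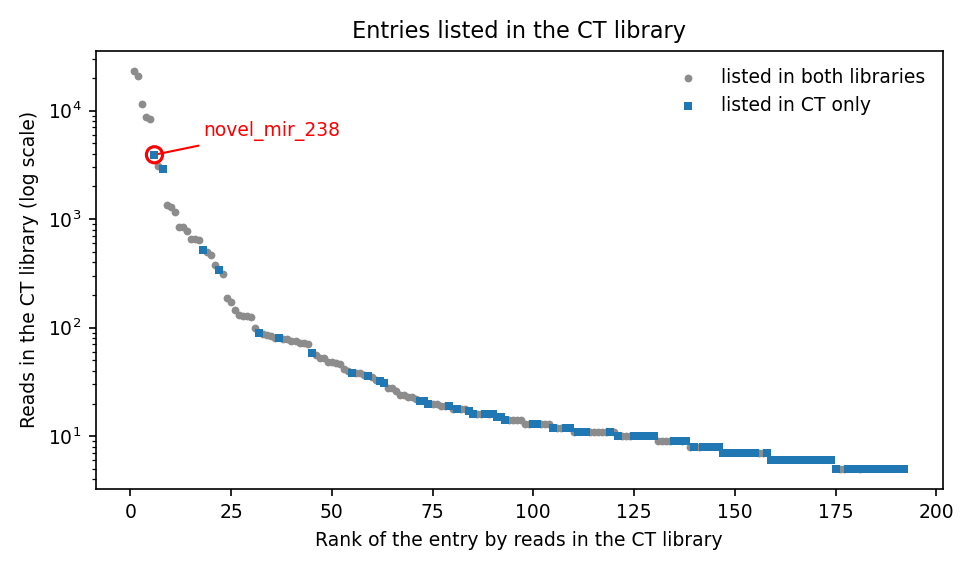
Reads in the CT library (vertical axis, log scale) of the 192 entries listed there, by rank (horizontal axis). Grey circles are entries listed in both libraries, blue squares entries listed in CT only, and the red ring marks novel_mir_238 at rank 6 with 3916 reads.

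A listing of 0 does not say that no molecule was read. The lowest count above 0 was 5 reads in either library, and miRNAs were numbered separately in each, so a sequence with fewer reads, or one not predicted as a miRNA in that library, would also be listed at 0. If no more than 3 reads of novel_mir_238 went unlisted in NCT (0.140 TPM), its CT level was at least 1076-fold higher. If 4 reads went unlisted, the bound was 807. With the 0 set to 0.01 TPM, the study's own convention, the log2 ratio of CT to NCT was 13.88, a size that the chosen 0.01 TPM fixes. Among the 103 entries listed in both libraries the median log2 ratio was -0.41.

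Of the 299 entries, 89 were listed in CT only (29.8%), 107 in NCT only and 103 in both. Since novel_mir_238 was selected for this listing, nothing is read from that share. The CT-only entries held 8741 CT reads together, of which novel_mir_238 gave 44.8% (Wilson interval 43.8 to 45.8%). As novel_mir_238 was selected for the most reads among these entries, this share and its interval only describe the selected count. The median of the CT-only entries was 8 reads, and 82 of the 89 had fewer than 50.

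The next CT-only entry, novel_mir_261, had 2897 reads or 112 TPM (Wilson interval 108 to 116), so that novel_mir_238 was 1.35 times as abundant. These are the values just inside and just outside the limit by which novel_mir_238 was selected. The other CT-only entries above 10 TPM, the level at which the study considered a miRNA, were novel_mir_286 with 521 reads (20.1 TPM, interval 18.4 to 21.9) and novel_mir_276 with 342 reads (13.2 TPM, interval 11.9 to 14.7). Against these, novel_mir_238 was 7.52 and 11.5 times as abundant. By the study's positions and sequences, novel_mir_261 overlaps novel_mir_112, which had 3445 reads in NCT and 0 in CT. Likewise novel_mir_276 overlaps novel_mir_174, which had 343 reads in NCT and 130 in CT. The 0 listed in NCT for novel_mir_261 and novel_mir_276 is therefore not an absence of reads from their stretch of the genome.

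A larger set gives the background of that level. Of 28 entries above 10 TPM in at least 1 library, 5 had a log2 ratio above 1 (17.9%) and 7 were lower in CT by the same limit. The 5 higher entries were novel_mir_238, the other 3 CT-only entries above 10 TPM and 1 entry listed in both. For the 4 CT-only entries the call was fixed by the 0 listed in NCT, so nothing is read from this share. The entries novel_mir_112 and novel_mir_174, which overlap novel_mir_261 and novel_mir_276, were among the 7 lower. The study's real-time RT-PCR over a cold time course did not include novel_mir_238. It placed novel_mir_261 in a group that fell quickly, to its lowest level at 4 h or the next time point. That fall runs opposite to the listing of novel_mir_261 in CT only. It placed novel_mir_276, and novel_mir_114 of the NCT-only entries, in a group that rose early and fell later. In both groups the average level in the cold was below that at 0 h. It placed novel_mir_286 in a group that rose to a maximum and then fell. The study itself names only known miRNAs as opposite to the sequencing at 4 h. The NCT-only entry with the most reads, novel_mir_114, had 4288 reads or 201 TPM in NCT and 0 in CT, the reverse listing to that of novel_mir_238.

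The deposited table describes each entry of a library by the number of its precursor, the arm and the reads. For novel_mir_238 the CT text gives 1 precursor, number 64, the 5p arm and all 3916 reads. Of the 192 entries listed in CT, 164 had 1 precursor and 28 had several. By their first precursor, 109 of the 192 lay on the 5p arm and 83 on the 3p arm, and of the 89 CT-only entries 52 lay on the 5p arm.

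The number of its precursor lay between those of novel_mir_63 (number 62 in CT, 81 in NCT) and novel_mir_65 (number 67 in CT, 87 in NCT), which were in this order in both libraries. In CT, numbers 63 to 66 were novel_mir_237 with 7 reads, novel_mir_238, novel_mir_5 with 78 reads and novel_mir_60 with 10 reads. In NCT, numbers 82 to 86 were novel_mir_17, novel_mir_64, novel_mir_9, novel_mir_5 and novel_mir_7, with 7, 6, 32, 16 and 7 reads. Of the entries between the flanks only novel_mir_5 was found there in both libraries, and novel_mir_60 (14 reads in NCT) and novel_mir_7 (5 reads in CT) had other precursor numbers in the other library. None of these 5 shared a run of more than 7 nt with the precursor of novel_mir_238. Over all 210 entries listed in NCT, the longest run found in that precursor, on either strand, was 9 nt. No entry of the NCT library therefore shared a run of 10 nt or more with the precursor.

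In length novel_mir_238 was like most of the table and in its first base it was not. It had 21 nt, as had 221 of the 299 entries (73.9%) and 60 of the 89 listed in CT only. It began with A, as did 53 entries (17.7%), whereas 183 (61.2%) began with U, the base that plant AGO1 is known to favour at the 5′ end. Among the 7 CT-only entries with 50 reads or more, 4 began with A, and among all 89 this was so for 18. Its GC content of 38.1% lay below the median of all entries, 47.6%, and 35 entries had a lower one.

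The precursor folded into 1 hairpin with a minimum free energy of -50.7 kcal/mol at 37 °C. Both arms lay opposite each other in the stem, and the loop at its tip had 4 unpaired nt. Of the 21 nt of the 5p arm 19 were paired, 15 of them with the 3p arm and the rest with bases on the loop side of it. Of the 22 nt of the 3p arm 18 were paired. The same structure came out with the older energy parameters and at 4 and 26 °C.

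**Figure D2:**
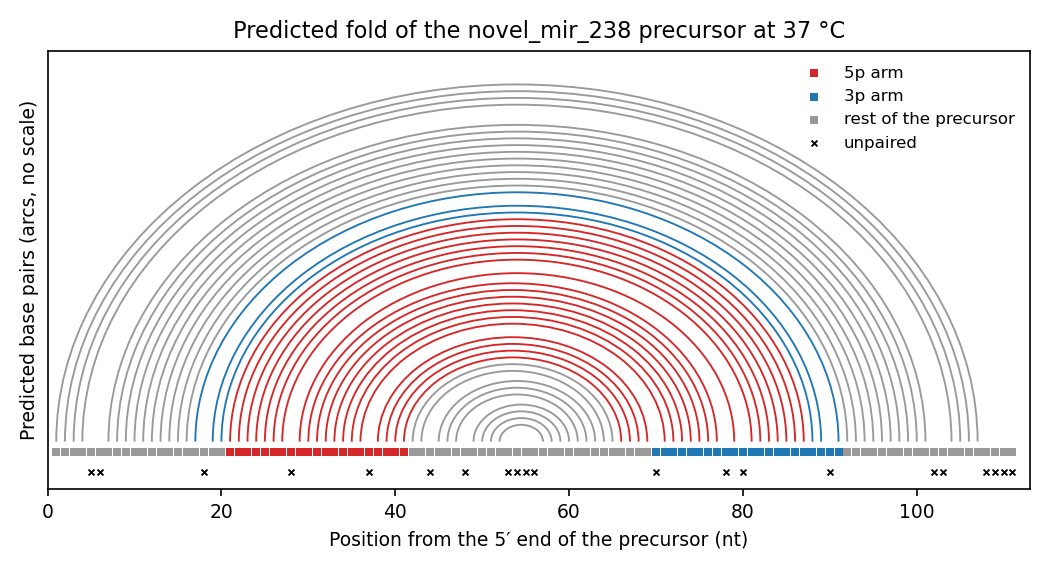
Predicted base pairs (arcs) of the novel_mir_238 precursor by position from its 5′ end in nt. Red arcs start in the 5p arm and blue arcs join the 3p arm to bases outside the 5p arm, grey arcs join the rest, squares mark the parts and crosses unpaired bases. The 5p arm at 21 to 41 and the 3p arm at 70 to 91 face each other in a single stem.

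Among the precursors of 65 predicted miRNAs folded in the same way, that of novel_mir_238 had the median free energy, with 32 lower. It was shorter than most (median 130 nt, 19 shorter), and per nt its energy was -0.457 kcal/mol against a median of -0.315, with 19 lower. The share of its bases that were paired, 81.1%, was exceeded by 3 of the others, and the median was 67.9%. A single hairpin loop was found in 32 of the 65. The mature sequence had 19 paired nt against a median of 18, with fewer in 39 precursors and more in 13.

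**Figure D3:**
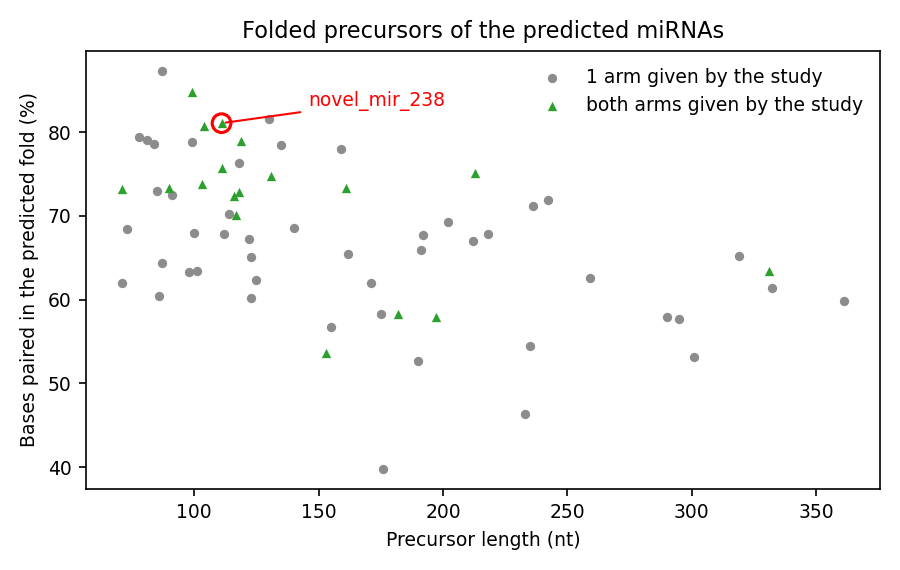
Share of bases paired in the predicted fold (vertical axis, %) against precursor length (horizontal axis, nt) for 65 precursors. Green triangles have a sequence given by the study for both arms, grey circles for 1 arm, and the red ring marks novel_mir_238 at 111 nt and 81.1%, with 3 precursors above it.

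The ends of the 2 arms were less usual. Dicer-like enzymes typically leave 2 nt unpaired at each 3′ end of the duplex. In the fold of novel_mir_238 each arm ran 4 nt past the base opposite the 5′ end of the other. Of 17 precursors in which both ends could be measured, 13 had 2 nt at both, and novel_mir_238 was the only one with 4 at both. The next CT-only entry, novel_mir_261, had 3 at both. The 15 pairs between the arms of novel_mir_238 compared with a median of 17 in the 18 precursors with both arms, 15 of which had more. A 21-nt window starting 2 nt before the counted 5p arm would leave 2 nt at both ends and make 17 pairs with the 3p arm. No entry of the table in either library has that sequence. As the table lists predicted miRNAs alone, this does not say whether that sequence was read. The combination of a 21-nt 5p arm with a 22-nt 3p arm was found in 3 of the 18, novel_mir_238 and those of novel_mir_113 and novel_mir_114.

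Both arms were aligned without gaps, over at least 18 nt, with 476 sequences: the 298 other entries of the table, 161 known grapevine miRNAs and the second arms of 17 other predicted miRNAs. For the 3p arm the fewest mismatches were 4 and the median 12, and for the 5p arm 4 and 11. Within 7 mismatches lay 6 sequences for each arm, and within 8 there were 9 for the 3p arm and 20 for the 5p arm. The 6 of the 3p arm are shown because they are the nearest relatives of novel_mir_238 on that side, with capitals at the bases that mismatch the 3p arm.
novel_mir_114: uucccaaGAccCcccauGccaa
novel_mir_113 3p arm: ucuuAccaaCAccUcccauucc
vvi-miR482: ucuuUccUaCUccUcccauucc
vvi-miR3633b*: GuUccCaugccAUccauuccUa
vvi-miR3633a*: uUccUauAccAcccauuccCUa
vvi-miR3632: uuUccCaGAccCccAauAccaa
With positions counted from the 5′ end of the 3p arm of novel_mir_238 and its base written first, novel_mir_114 differed over 22 nt by U8G, G9A, G12C and U18G. The 3p arm of novel_mir_113 differed at 4 positions over 20 nt, C3A, U8C, G9A and G12U. The known miRNA vvi-miR482 differed at 5 over 20 nt, C3U, A6U, U8C, G9U and G12U. Positions 8, 9 and 12 thus differed in all of these 3 relatives, and the 8 bases from 13 on that vvi-miR482 and novel_mir_113 share in the alignment were the same as in novel_mir_238. The star forms vvi-miR3633b* and vvi-miR3633a* each had 6 mismatches, over 22 and 21 nt, and vvi-miR3632 had 7 over 22 nt. With gaps allowed and the whole length aligned, novel_mir_114 remained at 4 differences, but vvi-miR482 had 9 and the 3p arm of novel_mir_113 had 8, and the nearest known miRNA was vvi-miR3633b* with 5. The next entries of the table after novel_mir_114 were novel_mir_203 with 8 mismatches and novel_mir_136 and novel_mir_52 with 9 each. The counted sequences of these hairpins came from different arms. The entries novel_mir_113 and novel_mir_238 are the 5p arms of their hairpins, and novel_mir_114 is a 3p arm. The entry novel_mir_113 had the most reads in CT, 23311, and 25311 in NCT. Of the others, novel_mir_114 was listed in NCT only and novel_mir_238 in CT only.

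For the 5p arm, the counted sequence, the nearest entries of the table were novel_mir_291, novel_mir_32 and novel_mir_96, each with 7 mismatches over 18 or 19 nt, and their reads were 0, 15 and 37 in NCT and 5, 7 and 0 in CT. Of the known miRNAs vvi-miR2950* had 7 mismatches, and vvi-miR3633b and vvi-miR3635 had 8. Nearer than these without gaps were 2 second arms, that of novel_mir_136 (a 3p arm) with 4 mismatches over 18 nt and that of novel_mir_114 with 6 over 19 nt. With gaps allowed and the whole length aligned, these second arms had 10 and 9 differences, against 8 for novel_mir_113 and for vvi-miR3633b. The 5p arms of the hairpins nearest on the 3p side are shown beside it, with capitals at the bases that mismatch the 5p arm of novel_mir_238.
novel_mir_113: CaugggcGgUuuggUaAGaGG
novel_mir_114 5p arm: ggUaugggAGgauugggGAGa
Aligned without an offset, novel_mir_113 had 8 mismatches over 21 nt, A1C, U8G, A10U, G15U, U17A, A18G, A20G and A21G. The second arm of novel_mir_114 started 2 nt earlier in the alignment and had A1U, C7A, U8G, A16G, U17A and A18G. At positions 8, 17 and 18 both differed from novel_mir_238 by the same base.

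**Figure D4:**
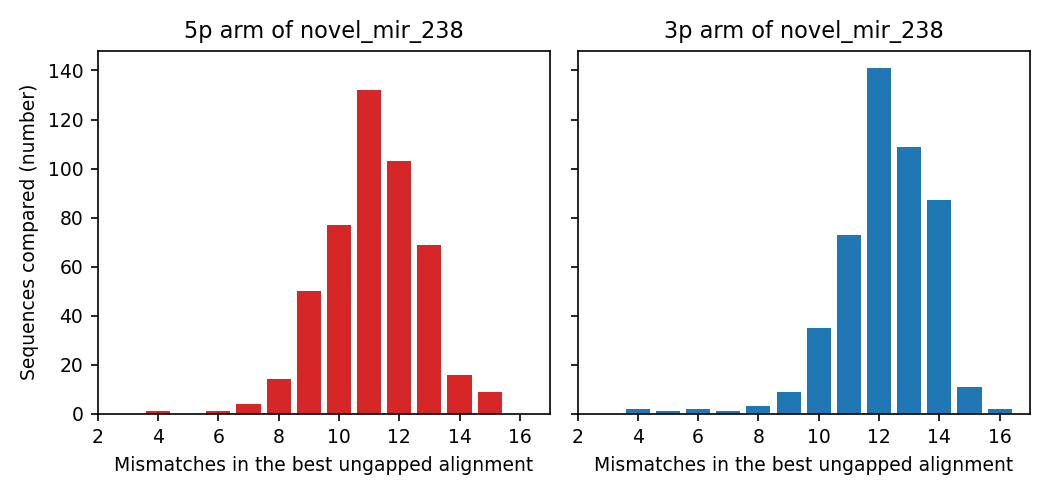
Number of sequences (vertical axis) by mismatches in the best ungapped alignment (horizontal axis) with the 5p arm (red, left) and the 3p arm (blue, right) of novel_mir_238, 476 sequences for each arm. On each side 6 sequences lie at 4 to 7 mismatches, at the low end of a continuous distribution with its median at 11 (left) or 12 (right).

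No other entry of the table shared the seed of the 5p arm, and none had that of the 3p arm. The first 6 bases of the 3p seed, bases 2 to 7, were found in 1 entry, novel_mir_114. Of the known miRNAs none had either seed. Aligned from end to end, the precursor of novel_mir_238 was most like those of novel_mir_113 (59.8% identity) and novel_mir_114 (55.0%), against a median of 44.0% over the other precursors. The next precursor, of a miRNA that is not among the arm relatives shown, had 54.1%, close to the value of novel_mir_114. No other precursor held a copy of either arm.

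For the 5p arm the study's target prediction gave 5 transcripts, and their sites fell into 2 distinct sequences of 20 nt. The sites are shown because they are what the counted arm would pair with, and capitals mark the bases that do not form a Watson-Crick pair with novel_mir_238.
GSVIVT01012245001, GSVIVT01015130001, GSVIVT01026037001 and GSVIVT01037060001: uuCauUccaaucagcUUGuu
GSVIVT01033046001: uuuaAcUGaauUagcccauu
The first site was the same in 4 transcripts. One is annotated as a GRAS domain protein (GSVIVT01037060001), a family of plant transcription regulators. Another is annotated as replication factor A 1 (GSVIVT01015130001), the large subunit of the complex that binds single-stranded DNA during replication and repair. GSVIVT01012245001 has an F/Y rich C-terminus, and GSVIVT01026037001 has no known function. The second site lay in GSVIVT01033046001, annotated as an NAD-dependent epimerase/dehydratase, enzymes that act mostly on nucleotide sugars. None of the 5 annotations names an NBS-LRR protein, and targets of the 3p arm were not analysed here.

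The pairing differed in place between the sites. With the shared site, novel_mir_238 formed 15 Watson-Crick pairs, 4 G:U pairs and 1 mismatch. Counted from the 5′ end of novel_mir_238, the G:U pairs were at positions 3, 4, 5 and 15 and the mismatch at 18, so 3 of the G:U pairs lay in the seed. With GSVIVT01033046001 it formed 16 Watson-Crick pairs, 2 G:U pairs at positions 9 and 14 and 2 mismatches at 13 and 16, and its seed was paired throughout. Positions 10 and 11, between which plant Argonaute proteins cut, formed Watson-Crick pairs at both sites.

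**Figure D5:**
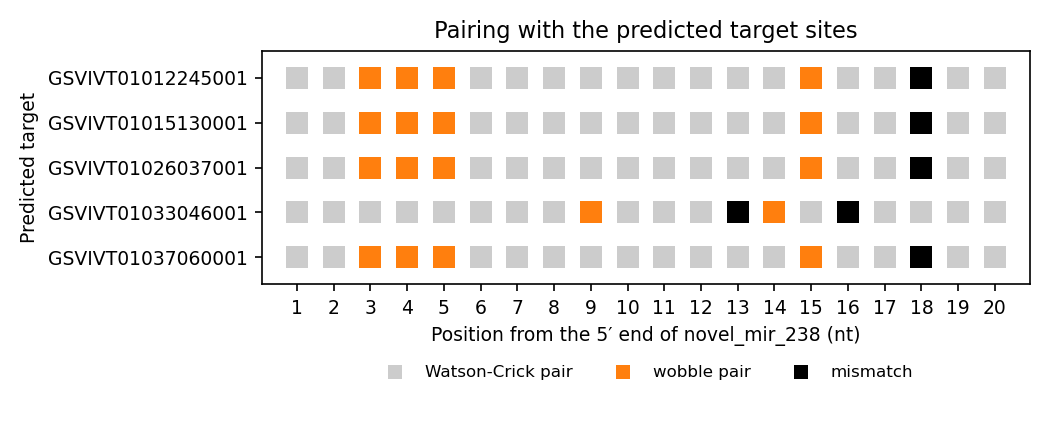
Pairing class at each position of novel_mir_238 from its 5′ end (horizontal axis, nt) for the 5 predicted targets (vertical axis). Grey squares are Watson-Crick pairs, orange squares G:U (wobble) pairs and black squares mismatches. The rows with the shared site have orange squares at positions 3, 4, 5 and 15, and GSVIVT01033046001 has none in positions 2 to 8.

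With a mismatch counted as 1 and a G:U pair as 0.5, each site had a penalty of 3. Over 147 predicted sites of 24 miRNAs the median penalty was 2 and the range 0 to 4.5, with 12 sites above 3. The median site had 18 Watson-Crick pairs, more than either site of novel_mir_238. The free energy of the duplex was -21.6 kcal/mol for the shared site and -20.2 kcal/mol for the other, against -33.0 kcal/mol for a perfect complement. None of the 5 transcripts was among the targets predicted for another of these miRNAs. Levels of these transcripts were not measured in the deposited table.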

How the data were processed

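Small RNAs of 18 to 30 nt were sequenced from 1 NCT and 1 CT library. The authors removed adaptors, mapped reads to PN40024 (12X) with SOAP2 and predicted miRNAs with Mireap. The submitters' processing notes also name STAR, with no role given. The deposited table gives raw read counts per predicted miRNA and library, and other deposited columns give, as text, each precursor's number, arm and count.

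TPM was computed as counts per 1000000 clean reads, whose totals are those the study states. Sequences of precursors, second arms, known miRNAs and target sites came from the study's supplementary lists, without their values. Precursors were folded with ViennaRNA 2.7.2 (Turner 2004 parameters, 37 °C), and the scripts ran in Python 3.11.15 and were tested on simulated data. No test was made, as there was 1 library per condition and the entry was selected on its counts. The entry and the lists were chosen with earlier results of these data known. Entries named are novel_mir_238, CT-only entries from 10 TPM, its neighbours in CT reads, the NCT-only entry with the most reads, the 3 nearest table entries and known miRNAs for each arm, and all predicted targets. Entries numbered beside it, entries overlapping other CT-only entries, second arms near it and further relatives were named after their values were seen. None of the target identifiers was found in the RefSeq gene table, so no coordinates were taken from it.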

Additional observations from a re-analysis of the deposited data

How the results depend on the processing

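The CT level of novel_mir_238, 151 TPM, was 212 over genome-mapped reads and 40134 over listed reads. The bound on its fold holds only for the number of unlisted NCT reads assumed, and none follows if that number is not limited. It was 1076 with 3 unlisted reads, 807 with 4, and 1430 with 3 and median-of-ratios scaling. The log2 ratio of 13.88 became 10.56 with 0 set to 0.1 TPM and 7.24 with 1 TPM. Entries listed in CT only numbered 89, 7 with 50 or more reads and 4 from 10 TPM. The precursor's free energy of -50.7 kcal/mol was -53.9 with the older Turner parameters, -87.8 at 4 °C and -62.9 at 26 °C. The nearest table entry to the 5p arm had 7 mismatches, 6 over at least 16 nt and 8 differences with gaps, and the nearest known miRNA had 8 with gaps. The penalty of 3 became 5 (shared site) or 4 (GSVIVT01033046001) with G:U pairs as mismatches, and 1 or 2 with G:U pairs as paired. The cause of the shift of the bound under median-of-ratios scaling was not tested. The rank in CT and the fewest differences of the 3p arm did not move, and the paired bases of the mature sequence stayed at 19. With gaps the known miRNA nearest to the 3p arm was vvi-miR3633b* (5 differences), while vvi-miR482 had 9 and the 3p arm of novel_mir_113 had 8. The search for the mature sequence in a genome was not run, as no genome was used here. No paired analysis was possible because NCT and CT hold 1 library each. No count under 5 is listed, and whether the NCT value of 0 reflects depth, the listing or the prediction was not tested.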
